A study of Equus caballus with 68 samples.

Results

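T cells and natural killer cells are lymphocytes, and a small set of genes marks their receptors, signalling chains, lineage factors and killing machinery. The genes described here are 44 symbols of that kind, chosen by name and not by their values, and found as the rows of the deposited expression table that carry one of these symbols. The table held 42 of them in 43 rows, among 30371 rows in all, and rows without a symbol were not searched for the other 2 (CD8B and GZMB). Of the 42, 40 passed the filter on low values (at least 0.5 GeTMM in at least 7 libraries) and were tested among 14570 genes. The others, IL7R and IFNG, were close to 0 throughout.

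The cells were bone marrow mononuclear cells (BMNC) of 8 adult Thoroughbred horses aged 3 to 9 years, sequenced uncultured (0 hours, 8 libraries) and once cultured in synovial fluid of the same horse. Healthy fluid (SF) came from normal joints, and inflamed fluid (ISF) from joints in which lipopolysaccharide had induced synovitis. Cells were harvested from each fluid at 48 hours (7 horses), 96 hours (8 horses), 6 days (8 horses) and 10 days (7 horses). The horse Moon has no library at 48 hours and the horse Flash none at 10 days. In all there are 68 libraries, 1 for each horse, fluid and time. No group carried a genetic change. Sternal marrow was separated on a density gradient, and fluid was cleared of its own cells and used undiluted. By the methods, synovitis was induced in radiocarpal joints and normal fluid was drawn from middle carpal joints, so inflammation and the joint sampled cannot be told apart. ISF is not 1 defined agent. With 1 well sequenced per horse and condition, the spread between horses cannot be told apart from that between wells. The p-values rest on this spread, pooled over all 68 libraries as if independent, although they come from 8 horses.

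A T cell recognises its target through the T cell receptor, which signals through the CD3 chains and CD247 (the zeta chain). The kinase LCK, held at the coreceptors CD4 and CD8, starts the signal, ZAP70 carries it on and the adaptor LAT spreads it. CD4 marks helper and regulatory T cells and CD8 marks cytotoxic T cells, which, like natural killer cells, kill with perforin and granzymes. In marrow these lymphocytes are a minority beside developing blood cells. Many of the genes are not strictly limited to lymphocytes: CD4, for instance, is also carried by monocytes and macrophages in several species.

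Levels are GeTMM, a read count per kilobase that was also scaled across libraries, so they can be compared between genes. Fold changes were taken on log2(GeTMM + 1), which understates those of low genes, so their order also depends on level. Depth was 15.7 to 36.0 M reads on genes per library (median 22.3 M). The SF library of Moon at 6 days stood apart: it held 12797 genes above 0, against 14783 to 17365 in the other 67 libraries, and its root mean square distance from its group median was 1.57 on the log2 scale, against 0.326 to 0.666. Of the 40 genes tested, 11 were below and 6 above the range of the other SF libraries at 6 days in that library, with CD247 and CD8A at 0 beside CD3E at 59.5 GeTMM. All its GeTMM values summed to 2.32 M, against 0.818 M (Catnip, SF at 10 days) to 1.46 M (Ollie, 0 hours) in the others. Its levels may therefore not compare directly with theirs, and the SF ranges at 6 days include it. At 96 hours the ISF libraries of Dealings and Dreamer resembled each other's horse in their most horse-specific genes (correlations of 0.948 and 0.912, against -0.233 and -0.135 with the labelled horse). Counts of horses at 96 hours, fits with a term for horse and fits without 1 horse all take these labels as given. The macrophage genes CD68, CD163, MRC1, GPNMB, TREM2, MSR1 and CSF1R summed to medians of 302 GeTMM at 0 hours, 17320 in SF at 10 days and 16490 in ISF at 10 days. GPNMB alone had medians of 12440 in SF and 8083 in ISF at 10 days, while MSR1 had 419.8 and 1198. Similar sums therefore do not mean equal levels of each gene.

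Before culture the highest of the T cell and natural killer genes were CD3G (median 55.9 GeTMM), CD8A (52.7), CD3E (52.4), LAT (48.3), CD3D (43.2), CD247 (31.4) and LCK (31.2). The ranges of CD3G, CD8A, CD3E, LAT and CD3D overlapped, so their order is not resolved. Transcripts of the cytotoxic program were lower, with KLRK1 at 17.6, GZMK at 14.2, GZMA at 7.74 and PRF1 at 7.18 GeTMM, and the lowest of the genes tested were CTLA4 (1.34), THEMIS (1.21) and FOXP3 (0.812). The map of group medians shows this starting order in its first column.

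**Figure D1:**
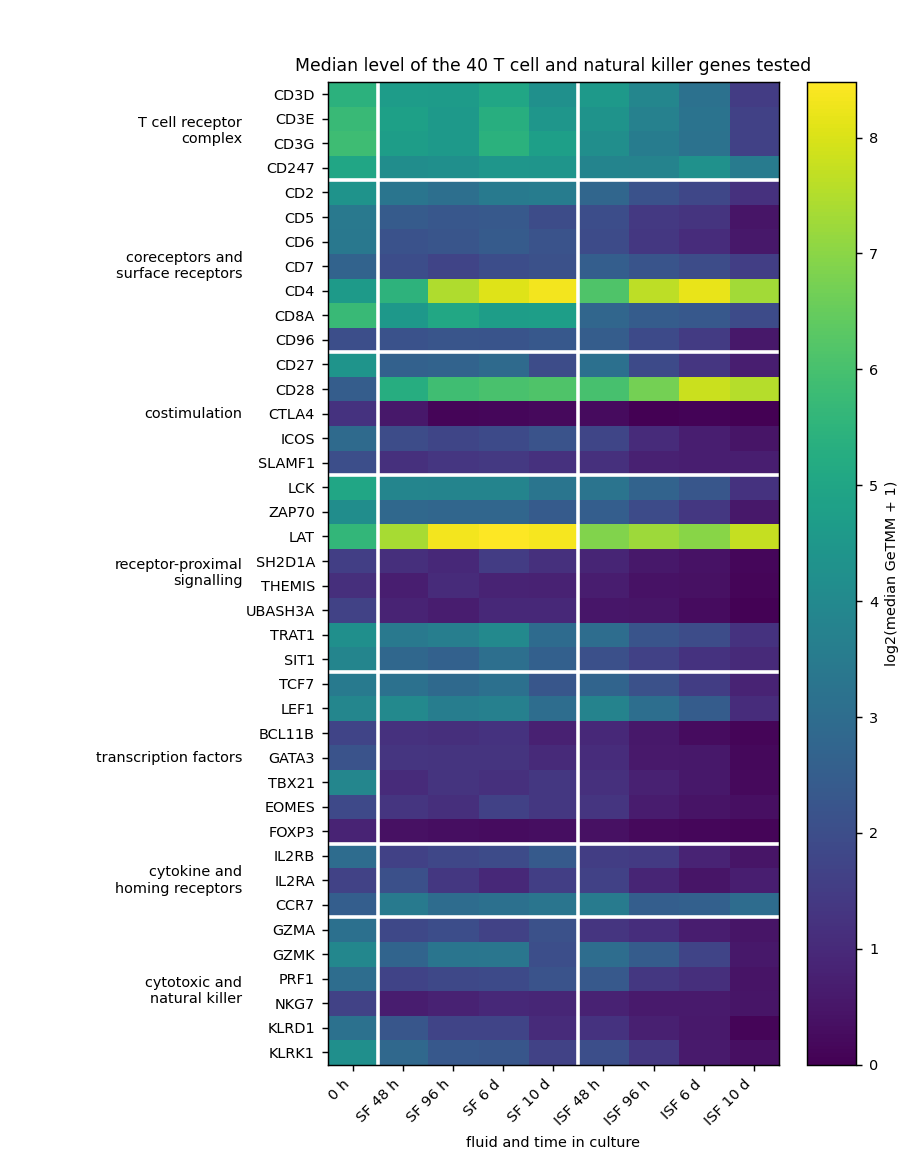
Median level of each of the 40 genes tested (rows, grouped by role) before culture and at 4 times in SF and in ISF (columns), as log2(median GeTMM + 1). Most rows darken from left to right within ISF while they stay near their 48-hour level within SF, and CD4, CD28 and LAT are brighter in culture than at 0 hours in both fluids.

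The first question is what happened to these transcripts when marrow cells were placed in either fluid. In the first 48 hours 23 of the 40 genes fell in SF and 30 fell in ISF, while 4 rose in each (FDR under 0.05, all groups in one limma fit). Over all 14570 genes, 23.1% fell and 22.3% rose in SF, and 27.4% fell and 25.3% rose in ISF. The median log2 fold change of the 40 genes was -0.74 in SF and -1.04 in ISF, against -0.01 and -0.03 over all genes tested. These are bulk measurements, so fewer lymphocytes and less RNA per lymphocyte cannot be told apart. Both 48-hour groups are compared with the same 0-hour libraries.

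TBX21 (T-bet, the transcription factor of type 1 helper and cytotoxic cells) had the steepest fall in SF, by 2.54 ± 0.23 (standard error, SE, as after every ± here) on the log2 scale (FDR = 1.65e-14). In ISF it fell by 2.63 ± 0.23 (FDR = 3.35e-15). It had stood at 6.55 to 19.3 GeTMM (median 13.8) and was at 0.545 to 3.78 GeTMM (median 1.04) in SF and 0.828 to 2.18 GeTMM (median 1.28) in ISF at 48 hours, with no overlap between uncultured and cultured libraries. CD27, a costimulatory receptor of naive and memory lymphocytes, fell by 1.49 ± 0.29 in SF (FDR = 1.67e-05) and by 1.17 ± 0.29 in ISF (FDR = 0.000425). The same 4 genes rose in both fluids. CD28 went up by 2.94 ± 0.38 (FDR = 2.09e-09) in SF and 3.5 ± 0.38 (FDR = 7.09e-12) in ISF, and LAT by 2.01 ± 0.37 (FDR = 5.85e-06) and 1.59 ± 0.37 (FDR = 0.00020). CCR7, the receptor that guides T cells and dendritic cells to lymph nodes, rose by 1.11 ± 0.33 (FDR = 0.00389) and 1.19 ± 0.33 (FDR = 0.0016), and CD4 by 0.84 ± 0.32 (FDR = 0.0267) and 1.19 ± 0.32 (FDR = 0.00138).

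After 48 hours the 2 fluids were followed separately. Without Moon at 48 hours and Flash at 10 days, changes between these times compare partly different horses. Between 48 hours and 10 days 2 of the 40 genes fell and 2 rose in SF, whereas 33 fell and 2 rose in ISF. Over all genes the shares in SF were 24.1% falling and 26.7% rising, and in ISF 26.4% and 27.2%. The median log2 fold change of the 40 genes was -0.15 in SF and -1.02 in ISF. In SF the genes that fell were KLRD1 (-1.04 ± 0.29, FDR = 0.00216) and KLRK1 (-1.04 ± 0.39, FDR = 0.0212), both lectin-like receptors of natural killer and cytotoxic T cells, and those that rose were CD4 (2.82 ± 0.33, FDR = 1.18e-10) and CD7 (0.76 ± 0.30, FDR = 0.0284). In ISF the steepest falls on log2(GeTMM + 1) were those of CD3D (-2.77 ± 0.47, FDR = 1.35e-06), CD3E (-2.6 ± 0.43, FDR = 6.55e-07), LEF1 (-2.56 ± 0.53, FDR = 4.53e-05), CD3G (-2.54 ± 0.42, FDR = 5.58e-07) and CD27 (-2.42 ± 0.30, FDR = 3.05e-10), and CD4 (1.63 ± 0.33, FDR = 2.99e-05) and CD28 (1.24 ± 0.39, FDR = 0.0061) rose. That scale understates the falls of low genes. The ISF median of KLRD1 went from 1.39 to 0.0837 GeTMM and that of UBASH3A from 0.439 to 0.0262, where CD3D went from 23.1 to 1.85.

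Whether the change from 48 hours to 10 days differed between the fluids was tested with an interaction term. Here too the horses differed in part between the times (no Moon at 48 hours, no Flash at 10 days). It passed for 10 of the 40 genes, all with a more negative change in ISF, against 1.41% of all genes in that direction, and 27 of the 40 had an unadjusted p under 0.05 in that direction. The 10 were CD3D (-2.51 ± 0.67, FDR = 0.0239), CD3G (-2.41 ± 0.59, FDR = 0.0122), CD3E (-2.27 ± 0.61, FDR = 0.0243), LCK (-1.99 ± 0.54, FDR = 0.0273), CD2 (-1.96 ± 0.55, FDR = 0.0331), CD96 (-1.87 ± 0.37, FDR = 0.00133), CD27 (-1.77 ± 0.42, FDR = 0.00951), CD7 (-1.68 ± 0.42, FDR = 0.0151), IL2RB (-1.55 ± 0.41, FDR = 0.0224) and PRF1 (-1.34 ± 0.39, FDR = 0.0386). With a term for horse the count was 20, which added ZAP70, LEF1, GZMK, CD5, CD6, ICOS, GZMA, EOMES, TBX21 and TRAT1. The count rests on single horses, being 1 without Ollie, 3 without Lurie, 4 without Catnip or without Dealings, 6 without Dreamer and 13 without Moon. CD8A (FDR = 0.842), CD247 (FDR = 0.964) and KLRD1 (FDR = 0.943) were not called with or without that term.

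**Figure D2:**
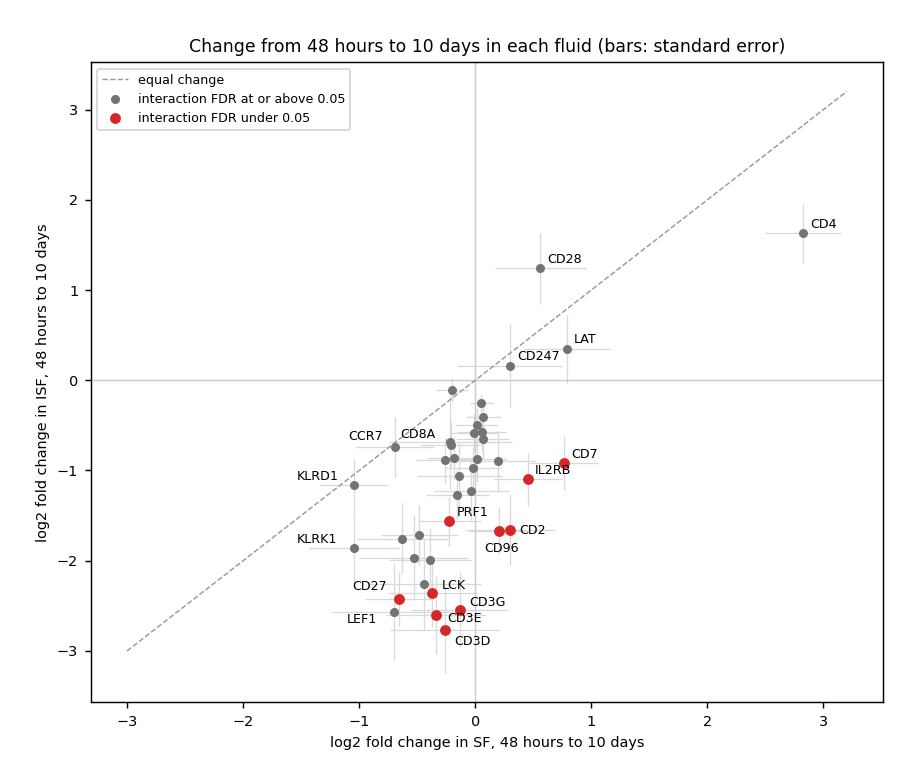
Log2 fold change from 48 hours to 10 days in SF (horizontal) and in ISF (vertical) for each of the 40 genes tested, with standard errors; the dashed line marks equal change. Most genes lie near 0 on the horizontal axis and below 0 on the vertical axis, and the 10 red points passed the interaction test.

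Compared at the same time, ISF and SF cultures differed in 1, 9, 32 and 35 of the 40 genes, in order of time from 48 hours to 10 days. The lower genes in ISF numbered 1, 9, 31 and 34, against 0.81%, 4.3%, 13.6% and 10.8% of all genes tested, and the higher ones 0, 0, 1 and 1, against 0.872%, 6.16%, 16.7% and 9.95%. The median log2 fold change of the 40 genes was -0.32, -0.71, -1.0 and -1.27 at the 4 times, against -0.02, 0.00, 0.00 and -0.02 over all genes. At 48 hours 3 of the 40 had an unadjusted p under 0.05 with a lower level in ISF, and at 96 hours 28. A term for horse gave 2 lower genes at 48 hours and 28 lower and 1 higher (CD28) at 96 hours, while it moved the later counts little (33 and 36 lower). At 96 hours that term rests on the doubted labels of Dealings and Dreamer. The genes it added as lower at 96 hours were CD3D, CD3E, CD3G, LCK, ZAP70, CD2, CD5, SH2D1A, THEMIS, UBASH3A, ICOS, SLAMF1, TCF7, LEF1, TBX21, EOMES, GZMA, GZMK and KLRK1, with FDR from 0.00128 (CD3G) to 0.0493 (TBX21). With the doubted ISF pair, Dealings and Dreamer, left out, the count at 96 hours was 5, and with single horses left out it went from 2 (no Dreamer) to 13 (no RimRun).

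**Figure D3:**
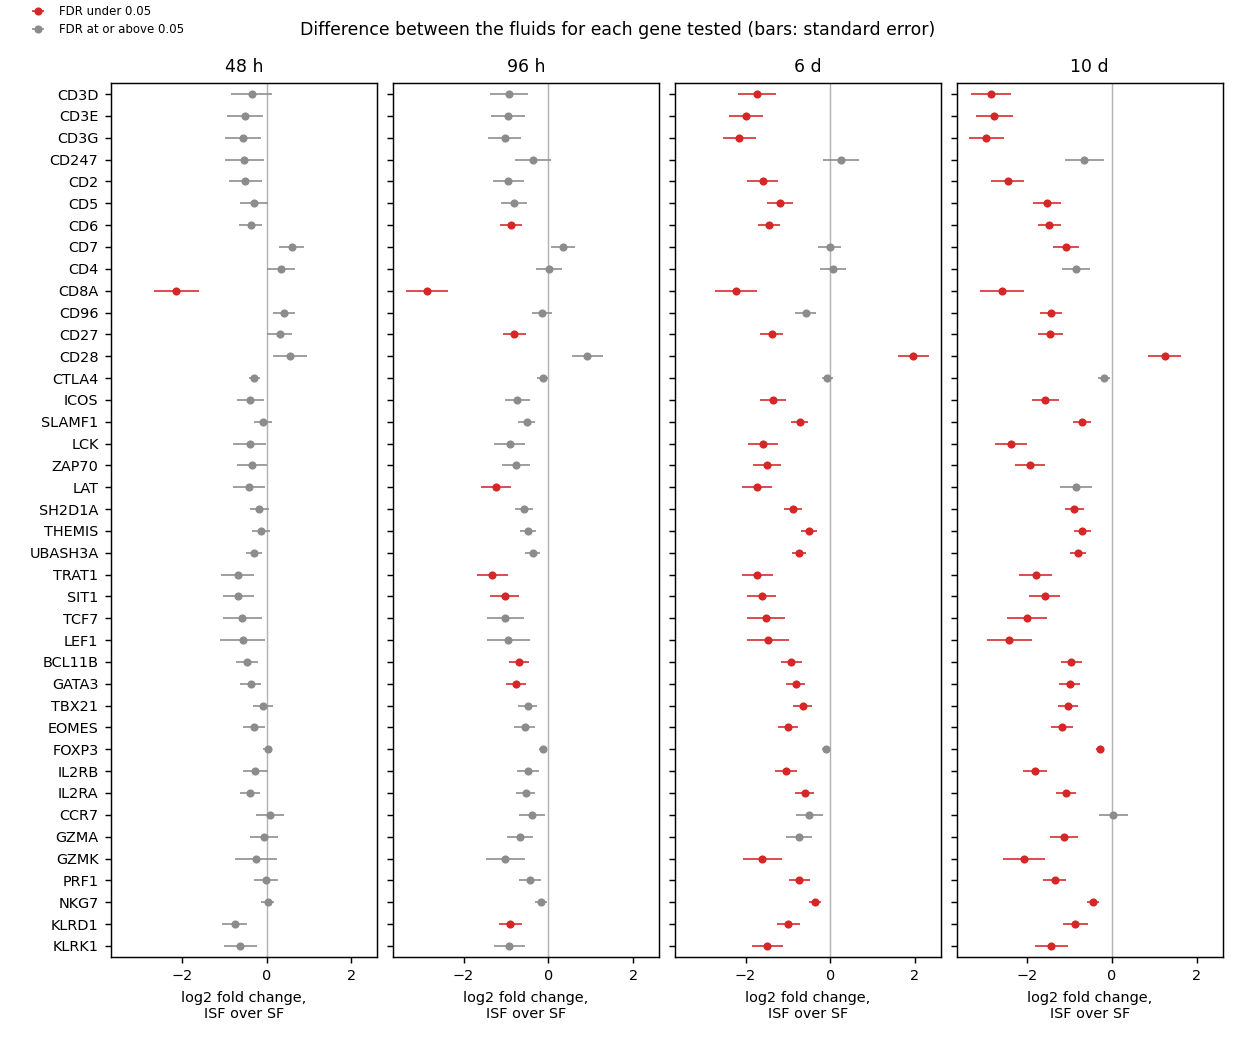
Log2 fold change of ISF over SF at each time for the 40 genes tested, with standard errors; red marks an FDR under 0.05. CD8A is the only red gene at 48 hours, and at 10 days all red genes except CD28 lie to the left of 0.

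Within horses at 10 days, 34 (RimRun) to 39 (Dreamer and Ollie) of the 40 genes were lower in the ISF culture of a horse than in its SF culture, and the median difference was from -0.542 (RimRun) to -2.05 (Catnip) on the log2 scale. At 48 hours the same count was 29 to 36 in 6 horses and 14 in Dealings. Every ISF library lay below every SF library at 10 days for 12 of the 40 genes (CD3D, CD3G, LCK, ZAP70, TRAT1, CD8A, CD5, CD6, KLRK1, TBX21, GATA3 and IL2RB), against 2.69% of all genes. That was so for 2 genes at 6 days (CD6 and UBASH3A), against 1.24% of all genes, and for CD8A alone at 96 hours and at 48 hours, against 0.824% and 0.268%.

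Some calls between the fluids depended on single horses. At 10 days those of CD7, GZMA, THEMIS, FOXP3, NKG7, KLRD1 and CD28 were lost without Lurie, those of FOXP3, NKG7, KLRD1, SLAMF1 and CD28 without Dreamer, those of FOXP3, NKG7 and KLRD1 without Catnip, those of GZMA, NKG7 and KLRD1 without Ollie, and that of CD28 without RimRun. The highest FDR reached for these genes was 0.141 for FOXP3, 0.126 for CD7 and 0.119 for KLRD1. At 6 days the calls of LEF1, TBX21, IL2RA, PRF1, NKG7 and THEMIS were lost without Catnip and without at least 2 other horses each, and that of TCF7 was lost only when the groups compared were fitted alone. At 96 hours CD8A alone of the 9 kept its call in every alternative. Without Dreamer the calls of TRAT1, SIT1, KLRD1, CD6, CD27, GATA3 and BCL11B were lost, and LAT was lost without Dealings and without Flash. The other 25 calls at 6 days and 27 at 10 days held in all 19 alternatives.

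The 4 genes of the receptor complex divided into the CD3 chains, which were lower in ISF, and CD247, which was not called at any time. CD3E ran from 34 to 107 GeTMM (median 52.4) before culture. In SF the medians of CD3E were 27.5, 23, 38.9 and 21.1 GeTMM at the 4 time points, within ranges of 10.5 to 65.8, 7.98 to 60.2, 7.35 to 59.5 and 4.69 to 57.7. The ISF medians were 19.3, 12.3, 8.28 and 2.12 GeTMM, within 9.43 to 33.4, 4.45 to 19, 2.45 to 12.7 and 1.24 to 5.63. At 10 days the SF median was 9.96 times the ISF median. The lowest SF library (RimRun, 4.69 GeTMM) fell just under the highest ISF library (Dreamer, 5.63 GeTMM), and in 7 of 7 horses the ISF culture was the lower one. The log2 fold change of ISF over SF was -0.51 ± 0.43, FDR = 0.651 on the first of the 4 times and -0.96 ± 0.40, FDR = 0.12 on the next, then -2.0 ± 0.40, FDR = 9.47e-05 and finally -2.78 ± 0.43, FDR = 2.0e-06. With a term for horse CD3E also passed at 96 hours (FDR = 0.00425).

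Before culture CD3D lay at 26.4 to 58.3 GeTMM (median 43.2). Its SF libraries held 10.1 to 71, 11.3 to 61.5, 6.33 to 71.7 and 5.58 to 59.1 GeTMM over the 4 times, with medians of 24.5, 23.9, 31.4 and 18.1. Its ISF libraries held 6.15 to 39, 5.89 to 24.7, 1.7 to 15.8 and 0.936 to 4.76 GeTMM, with medians of 23.1, 13.9, 8.02 and 1.85. The SF and ISF libraries overlapped until 6 days and were apart at 10 days (-2.86 ± 0.47, FDR = 6.46e-06), when CD3D was read by a median of 198 reads in SF and 14 in ISF. CD3G started at 37.3 to 76.1 GeTMM (median 55.9). Its median level in SF was then 25.5, 22.5, 42.1 and 26.5 GeTMM from 48 hours to 10 days (ranges 9.24 to 49.7, 6.12 to 48.6, 8.38 to 61.8 and 6.31 to 48.6), and in ISF 17.3, 10.8, 8.12 and 2.14 GeTMM (ranges 6.28 to 26.9, 4.24 to 18.2, 1.99 to 11.3 and 0.319 to 3.22). CD3G had the lowest fold change of the 40 genes at 10 days on log2(GeTMM + 1) (-2.96 ± 0.42, FDR = 3.15e-07), lower in ISF in 7 of 7 horses. By medians, SF stood at 12.4 times ISF for CD3G. That ratio was larger for UBASH3A (37.2) and KLRD1 (12.8), both near 0 GeTMM in ISF. Against the uncultured cells, the medians of CD3D, CD3E and CD3G in SF at 10 days were 41.9%, 40.4% and 47.4% of the level at 0 hours, and in ISF 4.29%, 4.05% and 3.83%.

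CD247 also serves natural killer cells and Fc receptors, and behaved otherwise. The uncultured cells held CD247 at 18.9 to 44.4 GeTMM (median 31.4). Cultures in SF had medians of 16.9, 17.5, 20.7 and 20.3 GeTMM in order of time, with libraries at 7.29 to 36.6, 5.07 to 38.4, 0 to 38.9 and 12.4 to 39.2. Cultures in ISF had 13.1, 13, 18.4 and 10.6 GeTMM, with libraries at 3.32 to 24.9, 7.35 to 20.5, 9.73 to 32 and 7.93 to 31.1. The ISF and SF libraries overlapped at every time, and at 10 days the fold change was -0.65 ± 0.46, FDR = 0.335, with the ISF culture lower in 7 of 7 horses. Its median in ISF at 10 days was 33.9% of that at 0 hours. From 48 hours to 10 days it was not called in SF (0.3 ± 0.46, FDR = 0.611) or in ISF (0.16 ± 0.46, FDR = 0.788).

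Among the coreceptors and surface receptors, CD2, CD5, CD6, CD7, CD8A and CD96 were lower in ISF at 10 days and CD4 was not called. CD2 is the adhesion receptor of T and natural killer cells. CD2 was at 9.42 to 32.4 GeTMM (median 19.7) at 0 hours. Over the 4 times its medians were 8.74, 7.56, 10.1 and 10.8 GeTMM in SF and 5.98, 3.4, 2.47 and 1.31 GeTMM in ISF. The libraries spread over 3.4 to 17.8, 2.99 to 17.1, 2.75 to 22.1 and 2.04 to 52.6 in SF and over 2.46 to 8.67, 1.44 to 6.32, 0.737 to 4.83 and 0.316 to 2.25 in ISF. The fold change was -1.6 ± 0.36, FDR = 0.000474 at 6 days and -2.46 ± 0.39, FDR = 2.58e-06 at 10 days, lower in ISF in 8 of 8 and 7 of 7 horses. CD5 and CD6, scavenger-type receptors that dampen the T cell signal, lay at 0.0598 to 0.659 and 0.208 to 1.29 GeTMM in ISF at 10 days, against 0.677 to 7.81 and 1.51 to 6.47 in SF, with fold changes of -1.53 ± 0.33, FDR = 0.000427 and -1.49 ± 0.27, FDR = 3.73e-05. CD7 and CD96, both found on T and natural killer cells, were called between the fluids at 10 days and not before: at 48 hours their medians were 4.84 and 4.66 GeTMM in ISF and 3.05 and 3.4 in SF, and at 10 days 1.97 and 0.452 in ISF and 3.34 and 4.0 in SF (fold changes -1.09 ± 0.30, FDR = 0.00568 and -1.45 ± 0.26, FDR = 2.75e-05). At 6 days CD96 had medians of 1.8 GeTMM in ISF and 3.66 in SF (-0.58 ± 0.24, FDR = 0.0617, 6 of 8 horses lower), and with a term for horse it passed then too (FDR = 0.0361).

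CD8A, the alpha chain of the cytotoxic coreceptor, was the 1 gene of the 40 called between the fluids at 48 hours. CD8A ran from 31.5 to 74.6 GeTMM (median 52.7) before culture. In SF the medians of CD8A were 22.1, 32.9, 25.5 and 25.9 GeTMM at the 4 time points, within ranges of 7.76 to 117, 11.1 to 139, 0 to 137 and 5.71 to 39.2. The ISF medians were 5.97, 4.52, 4.08 and 2.85 GeTMM, within 1.96 to 7.36, 0.963 to 5.77, 1.34 to 5.03 and 1.11 to 3.91. At 48 hours the highest ISF library (7.36 GeTMM) was below the lowest SF library (7.76 GeTMM), and the fold change was -2.13 ± 0.53, FDR = 0.0188, in 7 of 7 horses. At 96 hours it was -2.86 ± 0.49, FDR = 3.58e-05 (8 of 8 horses). At 6 days it was -2.22 ± 0.49, FDR = 0.000374 (7 of 8, the exception being Moon with 0 in SF), and at 10 days -2.6 ± 0.53, FDR = 0.000186 (7 of 7). The 48-hour call is the least firm: it was lost with a pseudocount of 0.1, with limma voom on recovered reads, and without Catnip, Dealings, Dreamer, Lurie or Ollie (FDR over all alternatives 0.000665 to 0.131). From 48 hours to 10 days CD8A was not called in SF (-0.21 ± 0.53, FDR = 0.76) or in ISF (-0.68 ± 0.53, FDR = 0.284).

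Set against CD3E in the same library, CD8A held a median ratio of 0.965 before culture, 0.732 in SF and 0.241 in ISF at 48 hours, and 1.36 in SF and 0.259 in ISF at 96 hours. By 6 days the ratios were 0.776 and 0.522, and at 10 days 0.679 in SF and 1.17 in ISF. The difference of CD8A relative to CD3E between the fluids was called at 96 hours (-1.9 ± 0.54, FDR = 0.0161). That call was lost without Flash and without Lurie (highest FDR 0.0763). At 48 hours the difference was not called (-1.62 ± 0.57, FDR = 0.607), nor with a term for horse (FDR = 0.058), but it was with library weights (FDR = 0.000812). At 6 days it was not called (-0.23 ± 0.54, FDR = 0.678), with the SF library of Moon at 0 for CD8A. Without that library it was -0.98 (FDR = 0.0407), and with library weights -0.92 (FDR = 0.01). At 10 days it was not called (0.18 ± 0.57, FDR = 0.753). Of the 39 genes set against CD3E in this way, 0 were called at 48 hours (0.0% lower and 0.0755% higher over all genes), 1 was lower (CD8A) and 2 were higher at 96 hours (0.0412% and 19.1%), and 0 were lower and 31 higher at 10 days (0.0275% and 98.5%). On log2(GeTMM + 1) a low gene can come out higher relative to CD3E without a higher ratio to it. UBASH3A was called higher at 10 days (1.98 ± 0.39, FDR = 2.19e-06). Yet its ISF median was 0.0269 times its SF median, against 0.10 times for CD3E. These counts therefore do not by themselves show a higher ratio to CD3E. The tests at 48 hours, 96 hours and 10 days were added after the values of CD8A had been seen. The SF libraries of Flash held 117, 139 and 137 GeTMM of CD8A at 48 hours, 96 hours and 6 days, the highest of each group and above that horse's uncultured cells at 31.5. In RimRun at 10 days CD8A was 30.7 GeTMM in SF beside CD3E at 4.69.

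The same subtraction of CD3E was made for the other genes at 6 days. Of 39, 23 were higher and 0 lower in ISF relative to CD3E, against 96.6% and 0.0892% of all genes. CD3E, which was subtracted, was itself lower in ISF. The log2(GeTMM + 1) scale bears on this count too, since low genes cannot fall as far on it as CD3E. UBASH3A was called higher relative to CD3E (1.26 ± 0.36, FDR = 0.000921). Yet its ISF median was 0.2055 times its SF median, against 0.2127 times for CD3E. In SF from 0 hours to 10 days 11 of 39 rose and 1 (TBX21, -1.17 ± 0.39) fell relative to CD3E, against 66.1% and 4.19% of all genes. The members' shares of rises were below those of all genes in both comparisons. With a pseudocount of 0.1 the counts were 13 higher at 6 days, and 8 rising and 4 falling in SF.

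CD4, the helper coreceptor, stood higher in culture than before it. Before culture CD4 lay at 18.1 to 41.2 GeTMM (median 23.9). Its SF libraries held 39.4 to 72.3, 161 to 252, 44.3 to 433 and 198 to 551 GeTMM over the 4 times, with medians of 43.7, 175, 264 and 321. Its ISF libraries held 28.2 to 115, 92.9 to 319.6, 141 to 403 and 109 to 520.5 GeTMM, with medians of 70.2, 199.7, 295 and 158. Both fluids ended above the uncultured cells, with log2 fold changes from 0 hours to 10 days of 3.66 ± 0.32, FDR = 8.67e-16 in SF and 2.81 ± 0.32, FDR = 7.97e-12 in ISF. The macrophage gene CD68 also stood higher in culture, with medians of 82 GeTMM at 0 hours, 3131 in SF and 3924 in ISF at 10 days. From 6 to 10 days in ISF the median of CD4 went from 295 to 158 GeTMM, and the macrophage genes went both ways. Medians rose for CD68 (3536 to 3924 GeTMM), GPNMB (6156 to 8083) and TREM2 (799.1 to 922.9). They fell for CD163 (1223 to 612.6), MRC1 (191.9 to 117.9), CSF1R (319.8 to 295.6) and MSR1 (1254 to 1198). The part of macrophages in the CD4 level was not tested. Between the fluids CD4 was not called at any time (10 days -0.85 ± 0.33, FDR = 0.0571), although with a term for horse it was lower in ISF at 10 days (FDR = 0.0193), in 6 of 7 horses.

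**Figure D4:**
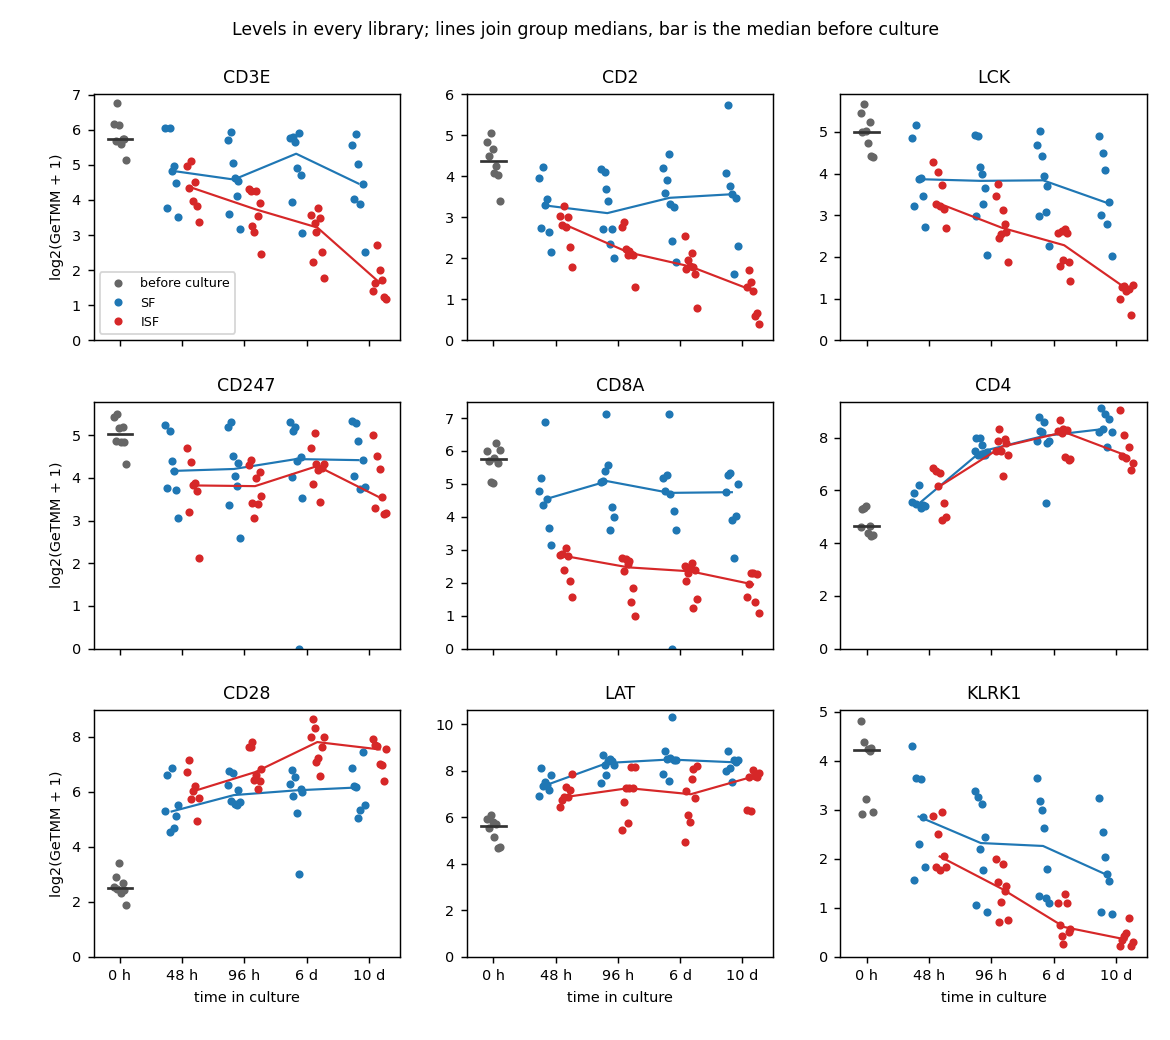
Level of 9 genes in every library, as log2(GeTMM + 1), before culture (grey) and at 4 times in SF (blue) and ISF (red); lines join the group medians. CD3E, CD2, LCK and KLRK1 drift downwards in ISF, and CD8A is already separate at 48 hours. The medians of CD4, CD28 and LAT lie above the uncultured median in both fluids, while some cultured libraries lie within the uncultured range. The SF points at 0 for CD247 and CD8A at 6 days are the library of Moon.

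Of the costimulatory genes, CD27, ICOS and SLAMF1 were lower in ISF at 6 and at 10 days, CTLA4 was not called, and CD28 was the sole gene among the 40 that was higher in ISF. CD28 gives naive T cells their second signal when it meets CD80 or CD86. CD28 started at 2.73 to 9.69 GeTMM (median 4.7). Its median level in SF was then 38, 58, 65.4 and 70.5 GeTMM from 48 hours to 10 days (ranges 22.3 to 115, 45.2 to 107, 7.07 to 109.5 and 31.8 to 173), and in ISF 63.7, 104.1, 223 and 185 GeTMM (ranges 30.0 to 142, 68.3 to 223, 94.6 to 396 and 83.2 to 243). It was higher in ISF in 8 of 8 horses at 6 days (1.96 ± 0.37, FDR = 3.13e-05) and in 6 of 7 at 10 days (1.24 ± 0.39, FDR = 0.0176), and with a term for horse also at 96 hours (FDR = 0.0224). The 10-day call was lost without Dreamer, without RimRun and without Lurie, whose SF library alone sufficed. From 0 hours to 10 days CD28 rose by 3.5 ± 0.38 in SF (FDR = 2.68e-12) and by 4.74 ± 0.38 in ISF (FDR = 1.88e-17), while the CD3 chains fell or were not called. Of 7 macrophage genes only MSR1, a scavenger receptor, was called higher in ISF at 10 days (medians 1198 against 419.8 GeTMM, 1.58 ± 0.33, FDR = 0.000248). The others were not called. Medians of CD68, CD163, TREM2 and CSF1R were higher in ISF, and those of GPNMB (8083 against 12440 GeTMM) and MRC1 (117.9 against 162.9) were lower. Whether macrophages carry the CD28 reads was not tested.

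ICOS, the inducible costimulator of helper cells, lay at 0.744 to 7.84 GeTMM in SF and 0 to 0.835 in ISF at 10 days (-1.58 ± 0.32, FDR = 0.000206). SLAMF1 held 0.608 to 4.81 and 0.181 to 1.13 GeTMM (-0.72 ± 0.21, FDR = 0.00978). CD27 was at 0.971 to 7.47 and 0 to 1.11 GeTMM (-1.46 ± 0.30, FDR = 0.00018), and it was the 1 gene of this role that passed the interaction test.

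The receptor-proximal signalling genes were all lower in ISF at 6 days (8 of 8), and 7 of 8 at 10 days, against 13.6% and 10.8% of all genes. The uncultured cells held LCK at 20.0 to 49.8 GeTMM (median 31.2). Cultures in SF had medians of 13.6, 13.2, 13.3 and 8.93 GeTMM in order of time, with libraries at 5.56 to 34.9, 3.11 to 29.5, 3.76 to 31.6 and 3.06 to 29. Cultures in ISF had 8.69, 5.49, 3.85 and 1.36 GeTMM, with libraries at 5.46 to 18.4, 2.67 to 12.4, 1.69 to 5.34 and 0.526 to 1.52. All ISF libraries lay below all SF libraries at 10 days (-2.38 ± 0.38, FDR = 3.68e-06), and at 6 days ISF was lower in 8 of 8 horses (-1.59 ± 0.36, FDR = 0.000443). ZAP70, the kinase that binds the phosphorylated CD3 chains and CD247, showed medians of 4.42 GeTMM in SF and 0.461 in ISF at 10 days (-1.94 ± 0.35, FDR = 3.7e-05). The adaptors TRAT1 and SIT1, which sit in the T cell membrane, were lower in ISF from 96 hours on (-1.32 ± 0.37, FDR = 0.0115 and -1.03 ± 0.34, FDR = 0.0391), and at 10 days had medians of 1.34 and 1.04 GeTMM in ISF against 6.87 and 5.0 in SF. SH2D1A, THEMIS and UBASH3A were low throughout (medians of 2.01, 1.21 and 2.18 GeTMM at 0 hours). Their fold changes at 10 days were -0.89 ± 0.23, FDR = 0.00286, -0.71 ± 0.20, FDR = 0.00897 and -0.8 ± 0.19, FDR = 0.000983.

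LAT, an adaptor also used by mast cells and platelets, stood higher in culture, where the kinases LCK and ZAP70 stood lower. LAT was at 24.4 to 67 GeTMM (median 48.3) at 0 hours. Over the 4 times its medians were 164, 321, 356 and 329 GeTMM in SF and 116, 151, 126 and 214 GeTMM in ISF. The libraries spread over 119 to 279.8, 177 to 413, 185 to 1275 and 184 to 453 in SF and over 86.7 to 234, 43.2 to 285, 29.4 to 289 and 76.7 to 257 in ISF. It rose from 0 hours to 10 days in SF (2.79 ± 0.37, FDR = 8.11e-10) and in ISF (1.94 ± 0.37, FDR = 3.76e-06). ISF was lower than SF at 96 hours (-1.23 ± 0.35, FDR = 0.0157) and 6 days (-1.72 ± 0.35, FDR = 0.00012), in 8 of 8 horses each time. At 10 days it was not called (-0.86 ± 0.38, FDR = 0.0977, 6 of 7 horses lower), and with a term for horse it was (FDR = 0.0293). The highest LAT value at 6 days was that of the SF library of Moon (1275 GeTMM), and over the 19 alternatives run, one of them without that library, the FDR at 6 days was 2.68e-06 to 0.0211. LAT and CD28 thus stood higher in culture than in marrow although CD3E stood lower.

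Transcription factors of the lineage were lower in ISF for 6 of 7 at 6 days and 7 of 7 at 10 days. Over all genes the shares were 13.6% and 10.8%. TCF7 and LEF1 act in naive and memory T cells. LEF1 ran from 4.92 to 23 GeTMM (median 13.9) before culture. In SF the medians of LEF1 were 15, 11, 11.8 and 7.26 GeTMM at the 4 time points, within ranges of 5.77 to 47.3, 3.95 to 46.6, 2.41 to 52.4 and 2.04 to 36. The ISF medians were 12.9, 7.45, 4.56 and 1.1 GeTMM, within 2.75 to 25, 1.31 to 14.5, 0.886 to 7.86 and 0.22 to 2.48. LEF1 was not called between 0 and 48 hours in SF (0.55 ± 0.52, FDR = 0.402) or ISF (-0.01 ± 0.52, FDR = 0.988) and was lower in ISF at 6 days (-1.48 ± 0.50, FDR = 0.0191) and at 10 days (-2.43 ± 0.53, FDR = 0.000524). Before culture TCF7 lay at 4.24 to 13.3 GeTMM (median 9.91). Its SF libraries held 4.13 to 21.6, 3.43 to 20.9, 0.0501 to 25 and 1.08 to 20.0 GeTMM over the 4 times, with medians of 7.95, 6.41, 7.69 and 3.85. Its ISF libraries held 1.99 to 11.1, 1.22 to 7.6, 0.434 to 3.06 and 0.298 to 1.43 GeTMM, with medians of 5.66, 3.29, 1.92 and 0.783. The fold change of TCF7 was -1.52 ± 0.44, FDR = 0.00582 at 6 days and -2.0 ± 0.47, FDR = 0.0011 at 10 days, with overlapping ranges and 7 of 7 horses lower in ISF at the end. The other naive genes did not move with these factors throughout. CCR7 started at 3.26 to 8.13 GeTMM (median 4.84). Its median level in SF was then 10.2, 6.99, 7.71 and 8.9 GeTMM from 48 hours to 10 days (ranges 6.43 to 27.7, 4.44 to 12.3, 3.44 to 12.6 and 1.59 to 10.5), and in ISF 10.7, 4.81, 5.04 and 7.03 GeTMM (ranges 7.09 to 26.6, 1.81 to 15.4, 1.96 to 8.99 and 2.99 to 18.4). CCR7 overlapped between the fluids and was not called at any time (10 days 0.03 ± 0.34, FDR = 0.968, lower in 3 of 7 horses). IL7R, the receptor of the survival cytokine interleukin 7, had 2 rows. One (ENSECAG00000033707) was 0 in every library, and the other (ENSECAG00000010973) reached 0.554 GeTMM at most, in an ISF library at 6 days, with a median of 0 to 4 reads per group.

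GATA3 drives type 2 helper cells and also serves early T cells. The uncultured cells held GATA3 at 1.91 to 5.91 GeTMM (median 3.49). Cultures in SF had medians of 1.5, 1.43, 1.43 and 1.0 GeTMM in order of time, with libraries at 0.543 to 4.17, 0.517 to 4.26, 0.384 to 3.57 and 0.262 to 3.14. Cultures in ISF had 1.09, 0.504, 0.461 and 0.123 GeTMM, with libraries at 0.397 to 1.74, 0.0856 to 1.56, 0.205 to 0.791 and 0 to 0.249. ISF was lower at 96 hours (-0.77 ± 0.23, FDR = 0.0216), 6 days (-0.82 ± 0.23, FDR = 0.00496) and 10 days (-1.0 ± 0.25, FDR = 0.00208), and at 10 days the ranges were apart. Of the 4 helper genes (CD4, CD28, ICOS and GATA3), 2 were therefore lower and 1 was higher in ISF at 10 days. Over all genes 10.8% were lower and 9.95% higher. BCL11B, which holds cells in the T lineage, was at the threshold at 96 hours (-0.69 ± 0.24, FDR = 0.0495), a call lost in 10 of 19 alternatives, and was lower in ISF at 6 days (-0.92 ± 0.24, FDR = 0.0022). It had medians of 0.734 GeTMM in SF and 0.0727 in ISF at 10 days (-0.96 ± 0.26, FDR = 0.0042). TBX21 and EOMES, the factors of effector and natural killer cells, had medians of 0.154 and 0.276 GeTMM in ISF against 1.61 and 1.6 in SF at 10 days (-1.05 ± 0.24, FDR = 0.000835 and -1.19 ± 0.26, FDR = 0.000469).

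The regulatory genes were few in reads. FOXP3 is the master factor of regulatory T cells. FOXP3 was at 0.533 to 1.38 GeTMM (median 0.812) at 0 hours. Over the 4 times its medians were 0.29, 0.243, 0.213 and 0.237 GeTMM in SF and 0.293, 0.173, 0.0993 and 0.0938 GeTMM in ISF. The libraries spread over 0.123 to 0.606, 0.136 to 0.702, 0 to 0.47 and 0.166 to 0.799 in SF and over 0.107 to 0.458, 0.0486 to 0.428, 0.0423 to 0.405 and 0 to 0.205 in ISF. The median was 30.5 reads at 0 hours, 9 in SF and 3 in ISF at 10 days, and the fold change at 10 days (-0.28 ± 0.10, FDR = 0.0313, lower in 7 of 7 horses) rests on them. CTLA4, the inhibitory counterpart of CD28, was scarcer still. CTLA4 ran from 0.0625 to 1.67 GeTMM (median 1.34) before culture. In SF the medians of CTLA4 were 0.455, 0.0857, 0.112 and 0.148 GeTMM at the 4 time points, within ranges of 0.0267 to 0.79, 0 to 0.434, 0 to 0.579 and 0 to 0.719. The ISF medians were 0.183, 0.0225, 0.0664 and 0 GeTMM, within 0 to 0.281, 0 to 0.211, 0 to 0.355 and 0 to 0.454. Its median in ISF at 10 days was 0 reads, and a difference between the fluids was not detectable at this depth (-0.19 ± 0.14, FDR = 0.348). IL2RA, the high-affinity interleukin 2 receptor chain of regulatory and activated T cells, stayed near its starting level at first. Before culture IL2RA lay at 1.19 to 3.76 GeTMM (median 2.2). Its SF libraries held 1.29 to 4.04, 0.774 to 2.78, 0.757 to 3.14 and 0.772 to 5.42 GeTMM over the 4 times, with medians of 3.18, 1.6, 0.963 and 1.99. Its ISF libraries held 0.156 to 2.94, 0.335 to 1.81, 0.207 to 1.25 and 0 to 1.6 GeTMM, with medians of 2.1, 0.819, 0.401 and 0.624. From 0 to 48 hours it was not called in SF (0.19 ± 0.23, FDR = 0.533) or in ISF (-0.21 ± 0.23, FDR = 0.468). It was lower in ISF at 6 days (-0.61 ± 0.22, FDR = 0.0314) and 10 days (-1.08 ± 0.24, FDR = 0.000508). IL2RB, the chain shared with interleukin 15 signalling, had medians of 4.25 GeTMM in SF and 0.41 in ISF at 10 days (-1.81 ± 0.29, FDR = 3.28e-06).

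The cytotoxic and natural killer genes were lower in ISF for 1 of 6 at 96 hours, 5 of 6 at 6 days and 6 of 6 at 10 days. Over all genes the shares were 4.3%, 13.6% and 10.8%. In the first 48 hours 5 of the 6 had already fallen in SF and 6 in ISF, against 23.1% and 27.4% of all genes. GZMA and GZMK are granule proteases, and PRF1 (perforin) opens the target membrane for them. GZMK started at 8.75 to 45.1 GeTMM (median 14.2). Its median level in SF was then 5.59, 8.8, 9.11 and 3.12 GeTMM from 48 hours to 10 days (ranges 1.87 to 25.2, 2.59 to 26.7, 2.08 to 26.1 and 1.4 to 20.5), and in ISF 7.16, 4.48, 2.34 and 0.461 GeTMM (ranges 3.34 to 14.1, 0.572 to 7.62, 0.609 to 4.59 and 0.147 to 1.68). GZMK was lower in ISF at 6 days (-1.6 ± 0.46, FDR = 0.00521) and 10 days (-2.08 ± 0.49, FDR = 0.00121), in 8 of 8 and 7 of 7 horses. In ISF at 10 days GZMK rested on 2 to 25 reads per library. The uncultured cells held GZMA at 4.58 to 14.9 GeTMM (median 7.74). Cultures in SF had medians of 2.58, 3.0, 2.2 and 3.3 GeTMM in order of time, with libraries at 0.524 to 3.87, 0.426 to 4.22, 0 to 3.6 and 0.448 to 5.54. Cultures in ISF had 1.5, 1.17, 0.598 and 0.387 GeTMM, with libraries at 0.611 to 5.65, 0 to 1.85, 0 to 2.24 and 0.152 to 1.65. At 6 days GZMA was called in the fit with a term for horse (FDR = 0.00483) and not without it (-0.74 ± 0.31, FDR = 0.0623), and at 10 days it was lower in 6 of 7 horses (-1.14 ± 0.33, FDR = 0.00903). PRF1 was at 3.4 to 8.92 GeTMM (median 7.18) at 0 hours. Over the 4 times its medians were 2.29, 2.61, 2.74 and 3.53 GeTMM in SF and 4.2, 1.58, 1.23 and 0.379 GeTMM in ISF. The libraries spread over 1.67 to 7.6, 1.05 to 5.21, 0.811 to 4.62 and 0.634 to 5.3 in SF and over 1.87 to 4.8, 0.665 to 2.88, 0.613 to 2.06 and 0.0929 to 1.03 in ISF. PRF1 differed little at 48 hours (-0.01 ± 0.27) and was lower in ISF at 10 days (-1.35 ± 0.27, FDR = 0.000163), with an interaction FDR of 0.0386.

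KLRD1 (CD94) and KLRK1 (NKG2D) are receptors of natural killer cells and CD8 T cells. KLRK1 ran from 6.5 to 26.9 GeTMM (median 17.6) before culture. In SF the medians of KLRK1 were 6.26, 3.99, 3.79 and 2.22 GeTMM at the 4 time points, within ranges of 1.95 to 18.6, 0.879 to 9.44, 1.13 to 11.5 and 0.826 to 8.49. The ISF medians were 3.13, 1.61, 0.523 and 0.275 GeTMM, within 2.4 to 6.75, 0.639 to 3.0, 0.195 to 1.41 and 0.168 to 0.722. Before culture KLRD1 lay at 2.25 to 11.8 GeTMM (median 8.02). Its SF libraries held 1.55 to 6.57, 0.788 to 4.44, 0.327 to 4.24 and 0.141 to 2.86 GeTMM over the 4 times, with medians of 3.81, 2.31, 2.36 and 1.07. Its ISF libraries held 0.927 to 3.57, 0.288 to 2.08, 0.0636 to 1.72 and 0 to 0.628 GeTMM, with medians of 1.39, 0.678, 0.488 and 0.0837. Both fell in SF between 48 hours and 10 days, where the CD3 chains were not called, and the fold change of ISF over SF at 10 days was -1.44 ± 0.39, FDR = 0.00492 for KLRK1 and -0.87 ± 0.29, FDR = 0.0254 for KLRD1. In ISF at 10 days KLRD1 rested on a median of 1 read and KLRK1 on 6. With a term for horse KLRD1 was the 1 gene beside CD8A that was lower in ISF at 48 hours (FDR = 0.0232, 7 of 7 horses). NKG7, a granule membrane protein, was low. NKG7 started at 1.13 to 3.62 GeTMM (median 2.21). Its median level in SF was then 0.599, 0.763, 0.956 and 0.869 GeTMM from 48 hours to 10 days (ranges 0.547 to 1.22, 0.373 to 1.36, 0.271 to 2.16 and 0.448 to 1.63), and in ISF 0.745, 0.547, 0.526 and 0.40 GeTMM (ranges 0.469 to 1.32, 0.22 to 1.14, 0.278 to 0.796 and 0.195 to 0.493). Its fold change was -0.36 ± 0.14, FDR = 0.0405 at 6 days and -0.45 ± 0.15, FDR = 0.024 at 10 days. IFNG, the effector cytokine interferon gamma, had a median of 0 reads in every group and reached 0.717 GeTMM in 1 SF library at 10 days.

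Other genes of the same cells gave smaller shares of calls. Of 17 further T cell receptor signalling genes tested, 8 were lower and 0 higher in ISF at 10 days, against 10.8% and 9.95% of all genes. The median log2 fold change of the 17 was -0.47. The lowest were RASGRP1 (-1.81 ± 0.39, FDR = 0.000404) and SKAP1 (-1.56 ± 0.36, FDR = 0.000835), each with all ISF libraries below all SF libraries, and the highest were NFATC3 (0.1 ± 0.19) and NFATC1 (0.1 ± 0.21), which were not called. Several of these genes, such as PTPRC, LCP2 and VAV1, are shared by most blood cells. Of 14 further natural killer and cytotoxic genes, 10 were lower and 1 higher (median -0.91), against the same shares of all genes. CTSW, a granule protease, had the lowest fold change (-2.43 ± 0.40, FDR = 6.36e-06), with 0.523 to 4.81 GeTMM in ISF and 4.85 to 32.3 in SF, followed by NCR3 (-1.68 ± 0.33, FDR = 0.000136). At the other end NCR1 was not called (0.34 ± 0.39), and SH2D1B, a signalling adaptor of natural killer cells, was higher in ISF (1.9 ± 0.51, FDR = 0.00437). SH2D1B held 78.8 to 123 GeTMM in ISF and 12.7 to 94.5 in SF at 10 days, and the ISF culture was higher in 7 of 7 horses.

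Of 16 differentiation and homing genes, 8 were lower and 0 higher in ISF at 10 days (median -0.83), against 10.8% and 9.95% of all genes. CXCR3, a receptor for interferon-induced chemokines, was at 7.38 to 11.9 GeTMM in ISF and 13.1 to 46.3 in SF (-1.5 ± 0.22, FDR = 9.78e-07), and S1PR1, which lets lymphocytes leave tissue, at 1.1 to 7.91 and 4.57 to 19.5 (-1.46 ± 0.44, FDR = 0.0123). KLF2, a factor of quiescent lymphocytes, was at the upper end and not called (0.41 ± 0.27). CXCR3 differed from the CD3 chains in its level over time, with medians of 4.98 GeTMM at 0 hours and 10.9, 27, 29.7 and 30.2 in SF.

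Genes of other cells moved over the same comparisons. The B cell genes CD79A, MS4A1, PAX5 and CD22 were lower in ISF at 6 and at 10 days. At 10 days CD79A lay at 3.64 to 74.3 GeTMM in SF and 0.892 to 5.56 in ISF (-2.58 ± 0.46, FDR = 2.81e-05), and MS4A1 at 1.49 to 47.4 and 0.259 to 3.41 GeTMM (-2.24 ± 0.45, FDR = 0.000146). Over the same libraries the sum of CD3D, CD3E, CD3G, CD2 and LCK was 23.5 to 199 GeTMM in SF and 4.33 to 14.8 in ISF. Neutrophil precursor genes summed to 2.15 to 1648 GeTMM in SF and 0.759 to 63.7 in ISF at 10 days, and 3 of 6 were lower in ISF. All 5 fibroblast or stromal genes (COL1A1, COL1A2, COL3A1, DCN and LUM) were lower in ISF at 10 days, their sum being 0.406 to 4038 GeTMM in SF, with the highest value in Lurie, and 0.123 to 49.3 in ISF. Without the SF library of Lurie 32 of the 40 T cell and natural killer genes were lower in ISF at 10 days. Of 7 macrophage genes 0 were lower and 1 (MSR1) was higher in ISF at 10 days, while 1 was lower and 1 higher at 6 days. Of 4 cell cycle genes 3 were higher in ISF at 6 days and 0 were called at 10 days. Over all genes 13.6% were lower and 16.7% higher in ISF at 6 days, and 10.8% and 9.95% at 10 days. The 4 erythroid genes summed to at most 1.53 GeTMM in SF and 1.32 in ISF at 10 days, with ALAS2 at 0 in every ISF library. The part of each cell type in the results was not tested.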

How the data were processed

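Bone marrow mononuclear cells of 8 horses were sequenced before and during culture in SF or ISF, giving 68 libraries in 9 groups. The authors trimmed reads with TrimGalore 0.4.3, aligned them to EquCab3.0 with STAR 2.7.2a, counted reads per gene with the Ensembl annotation (release 104) and deposited GeTMM values, which are RPKM-like reads per kilobase of gene with trimmed-mean scaling between libraries. The processing notes name edgeR, and the authors tested their own differences with DESeq2 on counts that are not used here. Groups and horses came from the sample labels, and 1 library stood for each horse, fluid and time.

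GeTMM was analysed as log2(GeTMM + 1), so fold changes of low genes are understated. Rows that reached 0.5 GeTMM in 7 or more libraries (14570 of 30371) entered 1 limma fit (version 3.58.1, R 4.3.3; empirical Bayes with an intensity trend) of the 9 groups without a term for horse, and FDR is the two-sided Benjamini-Hochberg adjusted p over all genes of a comparison. The fit was tested on simulated data with independent noise in each library and no effect of horse, so that test does not cover the pairing. Whole reads could be recovered from the GeTMM steps for 24065 of 24065 genes above 0 in any library (tolerance 0.02 reads), and limma voom on these reads was an alternative. Depth was 15.7 to 36.0 M reads on genes. Read numbers are given for some of the genes that rest on a few reads, and not for all of them.

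SF and ISF cultures of 1 horse came from the same animal and are paired. Deviations of the paired cultures from their group means correlated at -0.217 to 0.563 (median 0.358), over 0.1 in 26 of 30 pairs, and the fit with a term for horse is given beside the comparisons between fluids where it changes a call, and for the changes over time with the other alternatives. Every gene of the list found in the table is named. Those of the receptor complex, main coreceptors, subset and killing genes are given by group, the others by range, and from each list of further genes the 2 lowest and 2 highest fold changes at 10 days. The genes and lists were chosen with earlier results of these data known, so no count over them is independent support. Genome coordinates and sequences were not used here, and 2 genes of the further lists are not reported here.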

Additional observations from a re-analysis of the deposited data

Results flagged for a closer look

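Single libraries stood far from the rest of their group in 9 of 198 sets of 7 or 8 libraries examined (22 genes in 9 groups), where chance alone flags about 1 set in 20. The SF library of Moon at 6 days accounts for 3 of them: CD247 was 0 there and 10.5 to 38.9 GeTMM in the other 7 libraries, CD4 was 44.3 against 219 to 433 GeTMM, and CD28 was 7.07 against 36.6 to 110 GeTMM. GZMA was 0 in the SF library of RimRun at 6 days, against 1.32 to 3.60 GeTMM in the others. IL2RA was 0.156 GeTMM in the ISF library of RimRun at 48 hours, against 1.46 to 2.94. FOXP3 reached 0.702 GeTMM in the SF library of Dreamer at 96 hours, against 0.136 to 0.369. CTLA4 reached 0.211 GeTMM in the ISF library of Flash at 96 hours, against 0 to 0.0797, and 0.454 GeTMM in the ISF library of Lurie at 10 days, against 0 in the other 6. KLRD1 was 2.08 GeTMM in the ISF library of Lurie at 96 hours, against 0.288 to 0.869.

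The change from 48 hours to 10 days differed between the fluids, by the interaction term of the limma fit, for 10 genes. The difference of the ISF change from the SF change on the log2 scale was -2.51 for CD3D, -2.41 for CD3G, -2.27 for CD3E, -1.99 for LCK, -1.96 for CD2, -1.87 for CD96, -1.77 for CD27, -1.68 for CD7, -1.55 for IL2RB and -1.34 for PRF1.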

How the results depend on the processing

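Over the alternatives run (pseudocount 0.1, no filter or a filter at 1 GeTMM, a term for horse, median centring, library weights, the compared groups alone, limma voom on recovered reads, and without doubted libraries or each horse) no direction of a called gene was reversed. Calls that held in all 19 alternatives numbered 27 of 35 at 10 days, 25 of 32 at 6 days, 1 of 9 at 96 hours (CD8A) and 0 of 1 at 48 hours. The number of genes lower in ISF at 48 hours (1) was 0 with pseudocount 0.1 and with voom, and 2 with library weights. At 96 hours (9) it was 26 with library weights and 5 with voom or with the ISF pair Dealings and Dreamer left out, and 1 gene was higher with weights, with the compared groups alone and once the 6-day SF library of Moon was left out. With the replicate block, a term for horse, the counts were 2 lower at 48 hours, 28 lower and 1 higher at 96 hours, and 20 for the interaction (10). Relative to CD3E in SF from 0 hours to 10 days the block gave 4 lower (1) and 21 higher (11). No call made without the block was lost with it. Over time it added falls or rises of CD3D, CD247, CD8A, THEMIS, ICOS, TRAT1, GZMK and BCL11B (SF, 0 to 48 hours), CD3D (ISF, 0 to 48 hours), CD28 and TRAT1 (SF, 48 hours to 10 days), CCR7 (ISF, 48 hours to 10 days), and CD3D and THEMIS (SF, 0 hours to 10 days). Relative to CD3E it added TCF7 and GZMK at 10 days, ZAP70, CD27, ICOS and CD6 at 6 days, and PRF1, FOXP3, CD4, NKG7, CTLA4, CD96 and UBASH3A at 96 hours. Beside these and those named with the results it changed no other call. At 10 days 0 genes were higher without the SF library of Lurie (chosen after seeing the data), against 1. In SF from 48 hours to 10 days 1 gene fell with voom and with the compared groups alone (2), and 1 rose with pseudocount 0.1 and without that Lurie library (2). Relative to CD3E, 13 genes were higher at 6 days with pseudocount 0.1 (23) and 1 (CD8A) was lower with library weights or without the Moon library (0), and in SF from 0 hours to 10 days 4 were lower with pseudocount 0.1 and 2 with weights. The cause of these shifts was not tested. Voom was not run relative to CD3E.

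Leaving out each horse in turn gave 0 to 1 genes lower in ISF at 48 hours, 2 to 13 lower and 0 to 1 higher at 96 hours, 25 to 33 lower at 6 days, and 28 to 35 lower and 0 to 1 higher at 10 days. For the interaction the range was 1 to 13. In SF from 48 hours to 10 days it was 1 to 3 falling and 1 to 2 rising, and relative to CD3E in SF from 0 hours to 10 days 1 to 3 lower and 10 to 14 higher. Depth limits CTLA4, FOXP3, IL7R, IFNG and, in ISF at 10 days, KLRD1, KLRK1 and GZMK, which rest on few reads per library. Other genes also had medians near 0 GeTMM in ISF at 10 days, among them UBASH3A (0.0262) and SH2D1A (0.103).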

Other observations

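Some genes of natural killer and T cells outside the list above had another course in culture, and these were picked after their values were seen. TIGIT, an inhibitory receptor of T and natural killer cells, had a median of 2.14 GeTMM before culture (1.76 to 3.28), 27.4, 46.6, 56.7 and 69.9 in SF and 30.2, 54.4, 77.2 and 49.6 in ISF over the 4 times. All cultured libraries were thus above all uncultured ones. Between the fluids TIGIT was higher in ISF at 6 days (0.65 ± 0.24, FDR = 0.0315, 7 of 8 horses) and was not called at 10 days (-0.33 ± 0.25, FDR = 0.402).

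NCR1 (NKp46), a natural killer cell receptor, had medians of 74.9 GeTMM at 0 hours and 203 in SF and 227 in ISF at 48 hours, and then 4.9 and 3.68 at 10 days. KLRD1 and KLRK1 showed no such maximum at 48 hours. SH2D1B was higher in ISF than in SF already at 96 hours (2.28 ± 0.47, FDR = 0.000524) and at 6 days (2.91 ± 0.47, FDR = 2.23e-06), in 8 of 8 horses each time, with medians of 13.7, 52.9, 99.9 and 100.4 GeTMM in ISF from 48 hours to 10 days and 5.15, 9.39, 13.3 and 18.8 in SF.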
